A study of Mus musculus with 16 samples.

Results

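The comparison was between the yolk sac and the embryo proper of wild-type C57BL/6J mice at 9.5 days post coitum (dpc). It used 4 of the 8 RNA samples of the study, 2 yolk sacs and 2 embryos, and 8 of its 16 arrays, since each RNA sample was hybridized to 2 Illumina MouseWG-6 v2 bead arrays. The 4 samples were chosen by their tissue and genotype labels alone. The wild-type (+/+) conceptuses came from matings of mice heterozygous for a deletion of exon 6 of rudhira (Bcas3), and the homozygous (-/-) mutants enter below only as a further set of samples. Per the labels, embryo and yolk sac were dissected into separate tubes, the tail of the embryo was taken for genotyping, and total RNA was extracted with Trizol. By their descriptions the wild types had grown and vascularized normally, whereas growth and vessels were abnormal in the mutants. They do not state sex, litter or whether animals were pooled. The study's design text names wild-type embryo 2, and not embryo 1, among the samples it used.

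The yolk sac of the mouse surrounds the embryo as a 2-layered membrane. Its outer layer, the visceral endoderm, is an absorptive and secretory epithelium that takes up protein from the maternal side by endocytosis and secretes plasma proteins and lipoproteins, much as the liver does later. Its inner layer is extraembryonic mesoderm, which holds the blood islands, where primitive red cells and the first vessels form. The embryo proper at this stage has a beating heart, a regionalized neural tube, migrating neural crest and segmenting somites.

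A signal below is the intensity of a probe as deposited, averaged over the 2 arrays of a sample, in arbitrary units and background subtracted, so that values near 0 and below can occur. A difference is yolk sac minus embryo on the log2 scale of the normalized intensity (neqc), given ± its standard error, with n = 2 samples per tissue. P-values were from limma, with Benjamini-Hochberg adjustment across the 11324 genes tested. A gene was called when its adjusted p was under 0.05, and most counts also ask for at least a 2-fold difference, which is 1 on the log2 scale. Where a gene was detected on 0 of the 4 arrays of a tissue, the ratio is a bound, "at least N-fold". It is taken on the normalized scale, not from the printed signals, and sets the mean of the other tissue over the lowest normalized level that counted as detected on an array, or the gene's own level where that was higher. Where 2 pairs of signals are set against each other, the first pair is embryos 1 and 2 and the second yolk sacs 1 and 2. Each gene is represented by its brightest probe, and no level is compared between genes. Of 81 genes named or drawn with several kept probes, 36 had another probe that differed by 1 or more on the log2 scale from the value used, and 41 of the 43 such probes lay nearer to 0. For a gene at background in a tissue, the size of its difference depends on the offset of the normalization. The labels do not say that samples of a group came from separate litters, so a p-value here speaks of the spread of these samples only. An exact permutation test of 2 against 2 samples could not go below p = 0.333 (two-sided).

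Of 45281 probes, the wild-type embryo arrays detected 17374 to 19002 and the wild-type yolk sac arrays 17896 to 19273, with 75th percentiles of signal of 109.5 to 125.5 and 97.6 to 140.7. Repeat arrays of a sample correlated at 0.996 to 0.998 across genes. On the log2 scale the 2 embryos differed with an SD over genes of 0.340 and the 2 yolk sacs with one of 0.275, compared with 0.142 to 0.202 for repeat arrays. The first principal component of the 8 samples held 91.6% of the variance and separated the tissues. Bcas3, the targeted gene, gave signals of 331.25 and 390.8 in the wild-type embryos, 759.35 and 1244 in the wild-type yolk sacs, 270.4 and 664.25 in the mutant embryos and 233.6 and 278.0 in the mutant yolk sacs. The mutant and wild-type embryos overlapped for Bcas3, and where the probe lies relative to exon 6 was not analysed here. In the wild types the gene was higher in yolk sac by 1.28 ± 0.33 (adjusted p = 0.0103, and 0.0598 without yolk sac 2).

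The 2 embryos stood apart for many genes of the visceral endoderm. Embryo 2 gave at least 2-fold more signal than embryo 1 for 167 genes and at least 2-fold less for 3. Of those 167 genes, 163 were among the genes called at least 2-fold higher in yolk sac. For the 12 genes with the largest differences toward the yolk sac among those measured in both tissues, the signal of embryo 2 was 5.09 to 9.65% of the mean yolk sac signal, and that of embryo 1 was -0.0682 to 0.286%. Over 126 tested genes of 7 lists of visceral endoderm genes the summed signal was 54992 in embryo 1, 98052 in embryo 2, 460697 in yolk sac 1 and 579606 in yolk sac 2, and 74 of the 126 were detected on both arrays of embryo 1 and 107 on both arrays of embryo 2. Medians of the endoderm lists, and the differences of several genes, are therefore given against each embryo as well. Over the 17 tested endoderm transcription factors the median of embryo 2 minus embryo 1 was 0.03, and 11 of the 17 were higher in embryo 2. These factors were not alike. Against embryos 1 and 2 Hnf4a differed by 5.93 and 3.77 and Foxa3 by 5.23 and 3.42, while Foxa2 differed by 1.78 against each. In mean log2 level of lipoprotein assembly genes, mutant embryos 1 and 2 stood at 7.51 and 7.98, against 5.83 and 8.54 in wild-type embryos 1 and 2. For endocytic and lysosomal genes the same order gave 8.52 and 8.83 against 7.86 and 8.99. In both lists the mutant embryos were nearer to wild-type embryo 2. For coagulation genes, at 5.92 and 5.88 against 5.58 and 6.72, they were nearer to wild-type embryo 1. What set the wild-type embryos apart was not tested.

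Markers of trophoblast and decidua, the placental and maternal tissues that lie against the yolk sac, also differed between samples. Of 18 trophoblast genes listed, 15 had a probe and 7 were tested (4 called at least 2-fold higher in yolk sac and 1 in embryo), and their summed signal was 2591 and 2736 in embryos 1 and 2 and 3048 and 5156 in yolk sacs 1 and 2. Of 14 decidual genes, 12 had a probe and 7 were tested (3 and 1 called so), with summed signals of 1241 and 959 in the embryos and 3428 and 4527 in the yolk sacs. Of all tested genes, 15.9% were called at least 2-fold higher in yolk sac and 14.6% in embryo. Prl2c2, a placental hormone of the prolactin family, gave signals of 6.45 and 186.95 in the embryos and 89.4 and 1222 in the yolk sacs. It was higher in the sample numbered 2 of each tissue and was not called between tissues (2.25 ± 1.14, adjusted p = 0.114, and 0.000708 with the shared number as a replicate block). Prl8a2, another member of that family, made in decidua, was at 2 and 112.3 against 119.4 and 1011 in the same order (2.69 ± 1.00, adjusted p = 0.0433, and 0.253 without yolk sac 2). Prap1, also on the decidual list, was instead lower in the sample numbered 2 of each tissue. It gave 657.7 and 69.95 in the embryos and 1633.8 and 886.9 in the yolk sacs. The part of such tissue in the differences below was not tested. The organs of the embryo left little trace in the yolk sac samples: over 123 tested genes of the heart, nervous system, neural crest and somite lists the summed signal was 89041 and 83999 in the embryos and 3170 and 4036 in the yolk sacs.

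Between the wild-type tissues 7869 genes were called, 69.5% of those tested. Of these, 3766 genes (33.3% of those tested) were higher in yolk sac and 4103 (36.2%) higher in embryo. With the 2-fold requirement 3461 genes (30.6%) were called, 1805 (15.9%) higher in yolk sac and 1656 (14.6%) higher in embryo. The median difference over all tested genes was -0.03. On the log2 scale 309 genes were higher in yolk sac and 225 higher in embryo by 3 or more, and 3 and 12 genes by 6 or more. Expression was shared more often than not: 8461 genes were detected on all 8 arrays, 520 on all 4 yolk sac arrays and 0 embryo arrays, and 587 on all 4 embryo arrays and 0 yolk sac arrays. In these bulk samples, fewer cells of a type and less RNA per cell cannot be told apart.

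**Figure D1:**
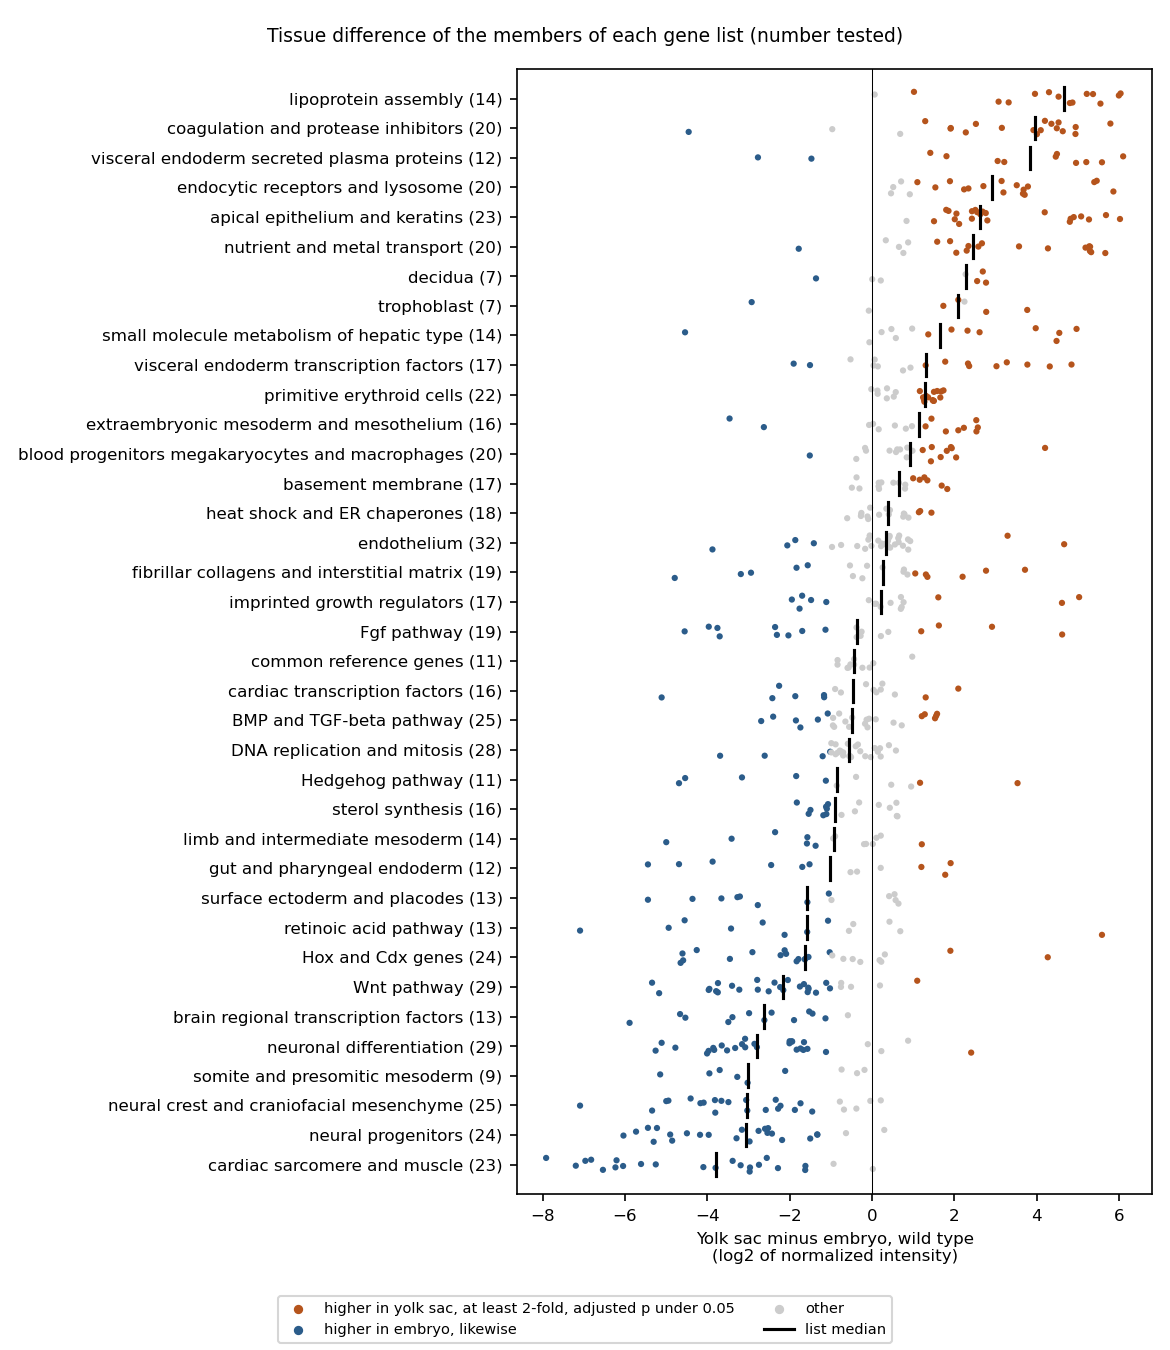
Each point is a tested gene, placed by its difference between wild-type yolk sac and wild-type embryo (x axis, log2 of normalized intensity), in 37 gene lists (y axis, number tested in parentheses). Coloured points are called with at least a 2-fold difference, and the black bar is the list median, which runs from 4.67 for lipoprotein assembly to -3.80 for cardiac sarcomere and muscle.

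Plasma proteins were among the genes most strongly higher in yolk sac. Of 19 genes for secreted plasma proteins, 18 had a probe and 12 were tested, and 10 of the 12 were called at least 2-fold higher in yolk sac and 2 higher in embryo, with a median difference of 3.84. The median was 4.35 against embryo 1 alone and 2.80 against embryo 2 alone. Of 22 genes for coagulation factors and protease inhibitors, 20 were tested, with 17 called at least 2-fold higher in yolk sac and 1 in embryo (median 3.97, and 4.40 and 3.04 against embryos 1 and 2). In the same comparison 15.9% of all tested genes were called at least 2-fold higher in yolk sac.

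The promoters of some of these genes carry a motif of HNF1, a homeodomain factor of liver and kidney, here the letters GTTAAT or, on the other strand, ATTAAC. The HNF1 motif occurred in 12 of the 35 promoters (34.3%) that could be read for 46 tested genes of the secreted plasma protein, lipoprotein and coagulation lists. The window ran from 250 bases before to 50 bases after the RefSeq start (300 bases). It occurred in 381 of 9165 promoters of all tested genes (4.16%), in 12 of 79 (15.2%) among the 100 largest differences toward the yolk sac and in 6 of 76 (7.89%) among the 100 largest toward the embryo. The HNF4 core CAAAGTC, searched on both strands, was in 2.86% of the same 35 promoters and in 3.50% of all, and the GATA site AGATAA in 17.1% and 6.31%. The 3 motifs were searched independently of each other. A match is a description of the letters and not a site of binding. Because these genes were chosen with earlier results known, no test was made of the shares. The 120 bases before the start are shown for 6 genes in which the HNF1 motif lies close to the start, 5′ to 3′ on the strand of the gene, with the HNF1 motif in capitals (RefSeq, GRCm38.p6).
Afp chr5:90490594-90490713 (+ strand, motif beginning 105 bases before the start): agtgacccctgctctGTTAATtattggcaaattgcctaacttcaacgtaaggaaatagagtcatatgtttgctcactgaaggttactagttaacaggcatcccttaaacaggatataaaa
Apoc2 chr7:19677942-19678061 (- strand, motif beginning 89 bases before the start): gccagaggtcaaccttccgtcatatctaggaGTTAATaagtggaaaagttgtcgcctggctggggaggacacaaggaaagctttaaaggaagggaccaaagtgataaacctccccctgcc
Fga chr3:83026033-83026152 (+ strand, motif beginning 43 bases before the start): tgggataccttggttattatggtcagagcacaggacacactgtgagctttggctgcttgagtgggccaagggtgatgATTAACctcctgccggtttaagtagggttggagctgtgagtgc
Fgb chr3:83049864-83049983 (- strand, motif beginning 29 bases before the start): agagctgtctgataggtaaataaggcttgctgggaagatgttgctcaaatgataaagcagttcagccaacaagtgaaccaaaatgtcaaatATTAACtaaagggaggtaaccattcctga
F13b chr1:139501587-139501706 (+ strand, motif beginning 51 bases before the start): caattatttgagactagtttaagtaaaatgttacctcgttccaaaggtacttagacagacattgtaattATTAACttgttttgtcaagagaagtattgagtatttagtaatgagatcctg
Itih1 chr14:30943290-30943409 (- strand, motif beginning 27 bases before the start): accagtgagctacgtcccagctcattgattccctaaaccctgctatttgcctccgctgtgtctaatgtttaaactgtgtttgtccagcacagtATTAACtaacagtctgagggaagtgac

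Afp, the alpha-fetoprotein of fetal plasma, gave signals of 49.6 and 1101 in embryos 1 and 2 and 8856.5 and 12356 in yolk sacs 1 and 2. Both yolk sacs stood above both embryos, which lay far apart. The difference was 5.21 ± 1.14 (adjusted p = 0.00443), or 7.38 against embryo 1 and 3.04 against embryo 2. Ttr, the thyroid hormone carrier transthyretin, followed the same order at 183.45 and 5726.5 against 22819.6 and 26331 (4.49 ± 1.33, adjusted p = 0.0177, 0.0618 in a fit of the wild types alone and 0.0645 and 0.0676 without yolk sac 1 or 2). Rbp4, the plasma carrier of retinol, gave 10.6 and 440.25 in the embryos and 4798 and 7292 in the yolk sacs, and Trf, the iron carrier transferrin, gave 98.2 and 1343 against 12020.4 and 13451. Their differences were 5.59 ± 1.08 (adjusted p = 0.0024) and 4.96 ± 1.00 (adjusted p = 0.00294). The largest difference of the list was that of Spp2, a secreted phosphoprotein, at 9.95 and 1020.1 in the embryos and 11098 and 14261 in the yolk sacs (6.10 ± 1.39, adjusted p = 0.00551). Embryo 1 was near the background for Spp2 and Rbp4, and embryo 2 was not.

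A few plasma proteins were undetected in both embryos. Itih3, a heavy chain of the inter-alpha-trypsin inhibitors, was detected on 0 of 4 embryo arrays and gave 205.8 and 279.35 in the yolk sacs, at least 6.48-fold higher (adjusted p = 1.67e-06). Itih1, whose promoter is printed above, gave -1 and 1.7 in the embryos and 44.7 and 99.5 in the yolk sacs (at least 2.21-fold higher, adjusted p = 0.000418). The 2 members in the other direction were Vtn (vitronectin, an adhesive glycoprotein), at 324.45 and 383.7 in the embryos and 34.4 and 40.1 in the yolk sacs (-2.77 ± 0.18, adjusted p = 9.66e-06), and Cp (ceruloplasmin, a copper-carrying oxidase), at 93 and 74.6 against 15.6 and 15.45. For both, the 2 tissues did not overlap and the embryos lay close together.

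The 3 chains of fibrinogen, the precursor of the clot, were all higher in yolk sac. Fga gave 4.85 and 443.2 in the embryos and 5399.9 and 7721 in the yolk sacs (5.79 ± 1.11, adjusted p = 0.00229), and Fgg gave 36.25 and 356.9 against 2666 and 3986 (4.49 ± 0.80, adjusted p = 0.00154). Fgb was detected on 0 embryo arrays and gave 90.65 and 119.1 in the yolk sacs, at least 3.17-fold higher (adjusted p = 3.46e-06). F2 (prothrombin) differed by 4.01 ± 0.29 (adjusted p = 1.5e-05), and Plg, the precursor of plasmin that dissolves clots, by 4.64 ± 0.31 (adjusted p = 1e-05), while F7, undetected in the embryos, was higher by at least 3.76-fold. F13b, the carrier subunit of the factor that crosslinks fibrin, gave -8.85 and -4.55 in the embryos and 49.7 and 86.75 in the yolk sacs and was higher in yolk sac by at least 2.18-fold. Serpina1b, an alpha-1-antitrypsin, gave 152.35 and 857.95 against 7599.9 and 9335 (4.36 ± 0.98, adjusted p = 0.00515), and it shares near-identical sequence with Serpina1a and Serpina1d, so which copy its probe reports is uncertain. Serpinf1, a secreted serpin also called pigment epithelium-derived factor, went the other way at 2182 and 2186 in the embryos and 100.2 and 85.95 in the yolk sacs (-4.45 ± 0.25, adjusted p = 4.69e-06), though the gene's other kept probe differed by 0.36.

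Genes of lipoprotein assembly had the highest median of any list, 4.67 over 14 tested of 19 listed, against 5.80 and 3.09 with embryo 1 or embryo 2 alone. Of the 14, 13 were called at least 2-fold higher in yolk sac and 0 in embryo. Apob, the structural protein of very low density lipoprotein, gave 13.8 and 1167 in the embryos and 11576 and 14061 in the yolk sacs. The difference was 6.00 ± 1.44 (adjusted p = 0.00698), or 8.71 and 3.29 against embryos 1 and 2. Mttp, which loads lipid onto Apob, gave 24.5 and 73 against 768.65 and 1083 (3.96 ± 0.36, adjusted p = 4.32e-05). Apoa1, the main protein of high density lipoprotein, gave 58.9 and 5704 in the embryos and 26115 and 27945.5 in the yolk sacs, so embryo 2 alone lay between the other samples. Its difference was 5.37 ± 1.72 (adjusted p = 0.0245), 8.64 against embryo 1 and 2.10 against embryo 2. The call was lost without yolk sac 1 or 2 (adjusted p = 0.0837 and 0.0829) and in a fit of the wild types alone (0.0764). Apoa4, Apoa2, Apom and Apoc3 differed by 6.04 ± 1.29, 4.87 ± 1.14, 5.55 ± 1.43 and 5.22 ± 0.60. Apoe, the ligand of lipoprotein receptors, gave 177.25 and 695.45 against 6577 and 9316.5 (4.30 ± 0.57, adjusted p = 0.00032). Apoc2, the activator of lipoprotein lipase, gave 6.6 and 76.8 against 1039.5 and 1288 (4.53 ± 0.46, adjusted p = 8.21e-05). Dgat2, which makes triglyceride, was at 250.75 and 440.55 against 3317 and 4331, while Dgat1, an unrelated enzyme of the same reaction, overlapped between the tissues at 104.25 and 98.25 against 83.65 and 115.4.

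**Figure D2:**
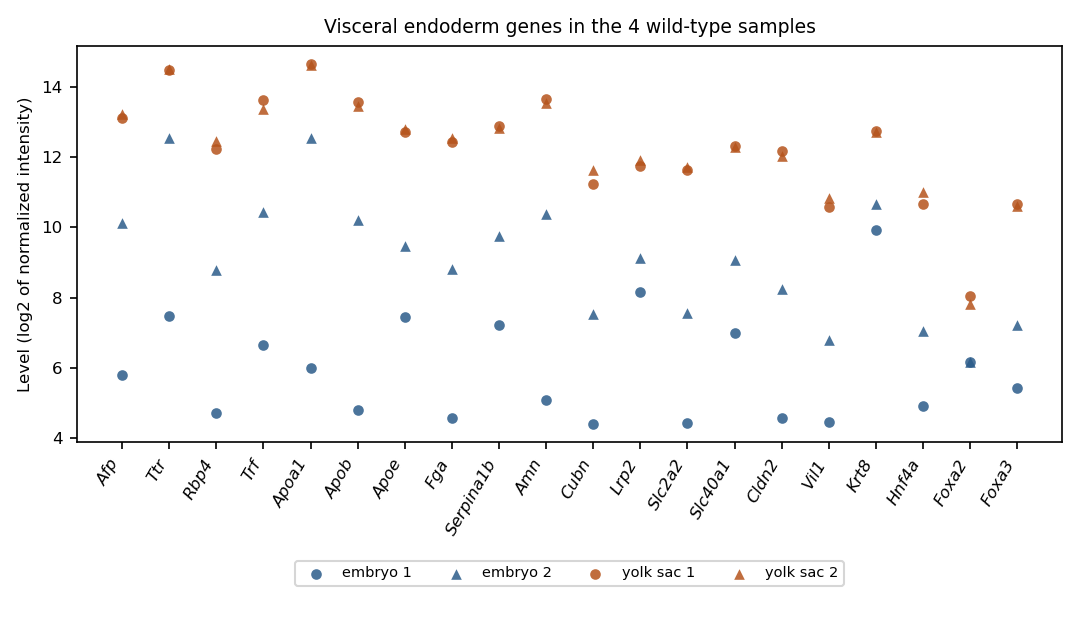
Level of 20 visceral endoderm genes (y axis, log2 of normalized intensity) in each wild-type sample, blue for embryos and orange for yolk sacs, with circles for number 1 and triangles for number 2. The 2 yolk sacs lie close together, and embryo 2 lies above embryo 1 for the secreted proteins and transporters, as for Apoa1 at 58.9 and 5704 in signal.

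The machinery of protein uptake was higher in yolk sac. Of 24 genes for endocytic receptors and the lysosome, 20 were tested, of which 16 were called at least 2-fold higher in yolk sac and 0 in embryo, with a median of 2.93 (3.25 and 2.57 against embryos 1 and 2). Cubn (cubilin), the large receptor that takes up vitamin B12 complexes and filtered proteins, gave -5.15 and 187.75 in the embryos and 2365 and 4235 in the yolk sacs (5.46 ± 0.88, adjusted p = 0.000951). Amn (amnionless), which anchors cubilin in the membrane, gave 23.25 and 1300.4 against 12278 and 14674 (5.87 ± 1.40, adjusted p = 0.00689). Against embryo 2 alone these differences were 3.89 and 3.22. Lrp2 (megalin), the partner receptor, was detected in all 4 samples at 292.15 and 550.2 against 3496 and 5131 (3.20 ± 0.27, adjusted p = 3.04e-05). Dab2, the adaptor that links such receptors to clathrin, gave 682.7 and 1724 against 14202.5 and 15751 (3.69 ± 0.40, adjusted p = 0.000111). Rab17, a small GTPase of polarized epithelia, was detected on 0 embryo arrays, being at least 9.38-fold higher in yolk sac, at 359.95 and 357.2. Lysosomal proteases spread widely, from 5.40 ± 1.04 for the cathepsin gene Ctsh and 3.52 ± 0.39 for the asparaginyl endopeptidase gene Lgmn to 2.24 ± 0.13 for Ctsb and 0.71 ± 0.12 for Ctsd. The lysosomal membrane proteins Lamp1 and Lamp2 differed by 1.54 ± 0.11 and 0.92 ± 0.09, though 3 of the 6 probes of Lamp2 gave 1.92 to 2.32. The tissues did not overlap for any of these genes.

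Of 23 genes for the transport of nutrients and metals, 20 were tested, of which 15 were called at least 2-fold higher in yolk sac and 1 in embryo (median 2.47, and 2.64 and 2.37 against embryos 1 and 2). Slc2a2, the low-affinity glucose transporter of liver and gut, gave -2.6 and 194.2 in the embryos and 3181 and 4449.9 in the yolk sacs (5.67 ± 0.85, adjusted p = 0.000658), while Slc2a1, the common glucose transporter, gave 5491 and 5499 against 9566.5 and 12078 (0.77 ± 0.17, adjusted p = 0.00494). Slc7a9, the light chain of the cystine transporter, differed by 5.28 ± 0.76, and the amino acid transporters Slc7a8 and Slc7a7 by 5.33 ± 0.70 and 3.57 ± 0.33. The zinc importers Slc39a4 and Slc39a5 differed by 5.30 ± 0.92 and 5.19 ± 0.71. Slc40a1 (ferroportin), the exporter of iron, gave 128.15 and 530.25 against 5061 and 6474 (4.28 ± 0.56, adjusted p = 0.000303). The metal-binding Mt1 gave 3931 and 5853.5 against 24311 and 28319 (2.30 ± 0.41, adjusted p = 0.00151). The exception was Heph (hephaestin), a copper-dependent ferroxidase, at 304.0 and 268.7 in the embryos and 65.85 and 74.45 in the yolk sacs (-1.78 ± 0.11, adjusted p = 8.06e-06).

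Epithelial genes were nearly all on the yolk sac side. Of 24 genes of the apical membrane, tight junctions and simple epithelial keratins, 23 were tested, 22 were called at least 2-fold higher in yolk sac and 0 in embryo, with a median of 2.63 (2.88 and 2.43 against embryos 1 and 2). Cldn2, a channel-forming claudin of leaky epithelia, gave 5 and 302.25 in the embryos and 4557 and 5524 in the yolk sacs (5.69 ± 0.98, adjusted p = 0.00136). Pdzk1, a scaffold of the brush border, gave 3.75 and 831.85 against 9459 and 11354 (6.03 ± 1.36, adjusted p = 0.0053). Vil1 (villin), which bundles the actin of microvilli, gave -1.15 and 108.3 against 1537 and 2399 (5.08 ± 0.66, adjusted p = 0.000303). Krt8 and Krt18, the keratin pair of simple epithelia, were detected in all samples, with differences of 2.43 ± 0.22 and 2.81 ± 0.21. Cdh1 (E-cadherin) gave 146.5 and 206.75 against 1052.5 and 1501 (2.69 ± 0.16, adjusted p = 6.78e-06), and Epcam was detected on 0 embryo arrays, being at least 2.81-fold higher. For Cdh1, Krt8 and Krt18 the embryos were closer together than for Cldn2, Pdzk1 and Vil1.

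Transcription factors of the visceral endoderm did not all go the same way. Of 21 listed, 17 were tested, of which 9 were called at least 2-fold higher in yolk sac and 2 in embryo (median 1.31, and 1.12 and 1.49 against embryos 1 and 2). The shares of all tested genes called so were 15.9% in yolk sac and 14.6% in embryo. Hnf4a, a nuclear receptor of hepatocytes and visceral endoderm, gave 17 and 134.1 in the embryos and 1588 and 2707 in the yolk sacs (4.85 ± 0.60, adjusted p = 0.000235, 5.93 and 3.77 against embryos 1 and 2). Foxa3 gave 34.45 and 149.3 against 1608 and 2054 (4.32 ± 0.49, adjusted p = 0.000149). Foxa2, which the embryo also uses in its floor plate, notochord and gut, gave 67.45 and 66.45 against 242.4 and 268.5 (1.78 ± 0.11, adjusted p = 6.39e-06), with the 2 embryos level. Foxa1, the third member of the subfamily, lay the other way at 218.7 and 207.4 against 121.6 and 166.9 (-0.52 ± 0.12, adjusted p = 0.00544, and 0.0527 with median scaling). Nr5a2, a nuclear receptor of endoderm, was detected on 0 embryo arrays, being at least 3.68-fold higher in yolk sac. Gata4 differed by 1.31 ± 0.19 (adjusted p = 0.000506), while Gata6, at 603.4 and 623.15 against 616.85 and 803.0, overlapped between the tissues (0.04 ± 0.13, adjusted p = 0.791), as did Sox17 (0.07 ± 0.19) and Hhex (0.15 ± 0.14). Both members higher in embryo, Nr2f2 and Prox1, differed by -1.90 ± 0.12 and -1.50 ± 0.11, and are known from veins and lymphatic vessels as well as from endoderm.

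Outside the lists, several further genes of epithelia and plasma were higher in yolk sac. Spink1, a secreted trypsin inhibitor, gave 109.1 and 2063 in the embryos and 13898.5 and 18813 in the yolk sacs (4.95 ± 1.15, adjusted p = 0.006). Car4, a membrane-bound carbonic anhydrase, gave 468.0 and 1025 against 8793 and 10219.8 (3.57 ± 0.37, adjusted p = 8.49e-05), and Selenop, the selenium carrier of plasma, gave 268.25 and 756.05 against 6469 and 8430.0 (3.87 ± 0.42, adjusted p = 0.000108). Both yolk sacs were above both embryos for the 3 genes. Rhox5, an X-linked homeobox gene, gave 37.75 and 1224 against 11305 and 15072 (5.65 ± 1.26, adjusted p = 0.005). Rhox6, Rhox9 and Esx1 were detected on 0 embryo arrays and were at least 9.31-, 5.12- and 8.31-fold higher in yolk sac, and Xlr4a differed by 3.11 ± 0.37. Rhox6 and Rhox9 are also on the trophoblast list, whose part in this was not tested. The largest bound of any tested gene toward the yolk sac belonged to Mgst2, a microsomal glutathione transferase, which was detected on 0 embryo arrays, being at least 12.3-fold higher in yolk sac at 394.6 and 605.3.

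Enzymes of small molecule metabolism that adult liver uses were tested for 14 of 31 listed genes, and 8 were called at least 2-fold higher in yolk sac and 1 in embryo (median 1.65). Among all tested genes 15.9% and 14.6% were called so. Ass1 and Asl, consecutive enzymes of the urea cycle, differed by 4.55 ± 0.64 and 2.62 ± 0.23. Ass1 gave 109.9 and 593.5 in the embryos and 5897 and 7897 in the yolk sacs. Arg1, the last enzyme of that cycle, lay the other way at 1642 and 1407 against 57.65 and 48.6 (-4.54 ± 0.16, adjusted p = 6.6e-07), with no overlap between the tissues. Hsd17b2, which inactivates sex steroids, differed by 4.97 ± 0.64 (adjusted p = 0.000289).

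**Figure D3:**
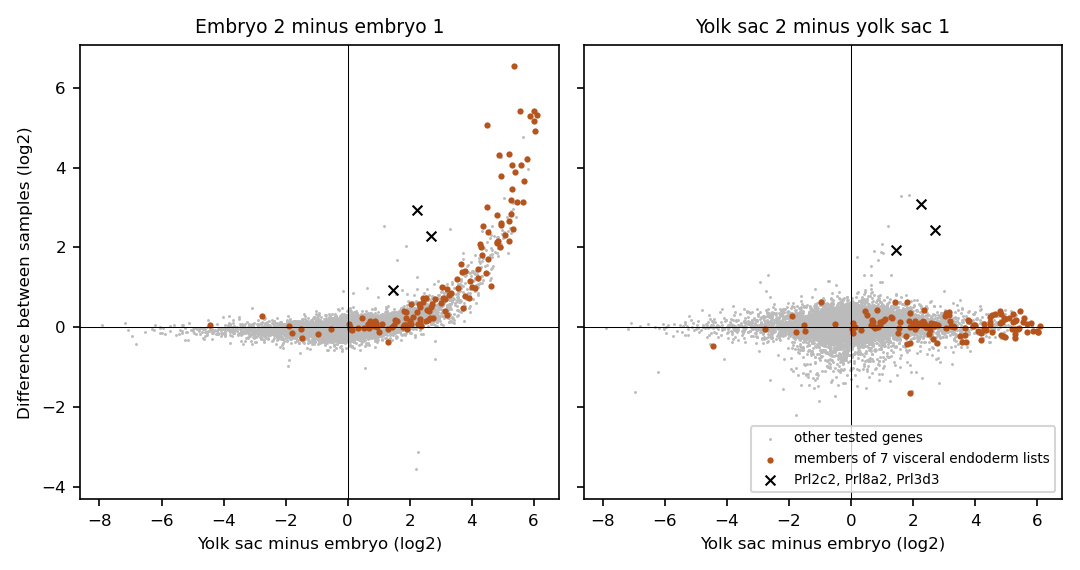
Each point is a tested gene, with its tissue difference on the x axis (log2) and the difference between the 2 samples of a tissue on the y axis (log2), embryos on the left and yolk sacs on the right. Orange marks members of 7 visceral endoderm lists and crosses mark Prl2c2, Prl8a2 and Prl3d3. On the left 167 genes lie at 1 or above, and 163 of them are genes called higher in yolk sac.

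Red cell genes were moderately higher in yolk sac. Of 30 genes of primitive erythroid cells, 22 were tested, of which 15 were called at least 2-fold higher in yolk sac and 0 in embryo, with a median of 1.29. The count was 9 without either yolk sac 1 or yolk sac 2. In the main fit 15.9% of all tested genes were called at least 2-fold higher in yolk sac and 14.6% in embryo. Gata1, the erythroid master regulator, gave 29.15 and 28.9 in the embryos and 98.6 and 114.7 in the yolk sacs (1.59 ± 0.31, adjusted p = 0.00272), and Klf1, a second erythroid factor, gave 238.6 and 289.3 against 571.8 and 841.95 (1.27 ± 0.40, adjusted p = 0.0223). Alas2, the first enzyme of heme synthesis in red cells, gave 929.75 and 902.7 against 2540.5 and 3331 (1.48 ± 0.46, adjusted p = 0.0227), and Epor, the erythropoietin receptor, gave 100.85 and 105.4 against 300.8 and 421.1 (1.66 ± 0.29, adjusted p = 0.00135). The embryos lay close together for all 4 genes, and the tissues did not overlap. The calls of Klf1 and Alas2 were lost without yolk sac 1 (adjusted p = 0.0666 and 0.0777) and without yolk sac 2 (0.0879 and 0.0793), and without embryo 1 (0.0891 and 0.0641), that of Alas2 also without embryo 2 (0.0626), and that of Gata1 under 75th percentile scaling (0.142). The 4 globins tested were not called with the probe used. Hbb-bh1 gave 25569 and 25576 in the embryos and 28549 and 30589 in the yolk sacs (0.14 ± 0.23, adjusted p = 0.612), and Hbb-y, Hba-x and Hba-a1 differed by 0.13 ± 0.23, 0.37 ± 0.31 and -0.01 ± 0.32. Their signals, 20347 to 30589, lay near the highest signals of the 16 arrays, 29165 to 33696, and saturation was not tested. Hba-x was called in a fit of the wild types alone (adjusted p = 0.0276), and Hbb-bh1 with the mean of its 2 probes (0.0489), the dimmer of which differed by 1.12.

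Genes of blood progenitors, megakaryocytes and macrophages were tested for 20 of 24 listed, with 9 called at least 2-fold higher in yolk sac and 1 in embryo (median 0.92). The shares over all tested genes were 15.9% and 14.6%. Mrc1, the mannose receptor of macrophages and some endothelia, gave 15.7 and 45.55 in the embryos and 601.65 and 1097 in the yolk sacs (4.21 ± 0.34, adjusted p = 2.59e-05). Csf1r, the receptor that defines macrophages, was detected on 0 embryo arrays, being at least 2.35-fold higher at 56.65 and 93.45. Pf4 and Itga2b, of megakaryocytes and early progenitors, differed by 2.05 ± 0.43 and 1.92 ± 0.25, and Tal1, which specifies blood, by 1.43 ± 0.31. The call of Pf4 was lost under 75th percentile scaling (adjusted p = 0.0884). Runx1, needed for definitive blood, was undetected in the embryos, with a bound of at least 1.21-fold toward yolk sac. Kit, the stem cell factor receptor, which is also found on melanoblasts and germ cells, was the member higher in embryo, at 479.35 and 432.0 against 126.5 and 195.65 (-1.51 ± 0.24, adjusted p = 0.00084).

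Endothelial genes mostly differed by less than 2-fold. Of 34 listed, 32 were tested, and 17 were called higher in yolk sac and 6 in embryo. Of all tested genes 33.3% and 36.2% were called so. With the 2-fold requirement 2 members were higher in yolk sac and 4 in embryo, against 15.9% and 14.6% of all tested genes. The median of the list was 0.34. Without embryo 2 the yolk sac count was 4, and it was 4 and 5 under 2 other scalings of the arrays. Pecam1 and Cdh5, junction proteins of all endothelium, gave 193.05 and 184.65 against 224.15 and 279.85 and 226.4 and 237.9 against 259.6 and 395.7. They differed by 0.37 ± 0.09 and 0.39 ± 0.12 (adjusted p = 0.00857 and 0.0218, and 0.0538 and 0.112 without embryo 2 for the former and embryo 1 for the latter), and the growth factor receptors Kdr, Flt1 and Tek by 0.56 ± 0.14, 0.66 ± 0.11 and 0.75 ± 0.14. Without embryo 1 the adjusted p of Kdr was 0.0678. Both members at least 2-fold higher in yolk sac are hyaluronan receptors. Lyve1 gave 0.5 and 71.75 in the embryos and 993.6 and 1472 in the yolk sacs (4.67 ± 0.57, adjusted p = 0.000211, 3.79 against embryo 2), and Stab2 gave 20.1 and 38.1 against 324.65 and 515.0 (3.30 ± 0.18, adjusted p = 4.35e-06). The members at least 2-fold higher in embryo were Hey1 and Hey2, effectors of Notch that are also used in heart and somites, at -3.87 ± 0.16 for Hey1 and at least 2.73-fold for Hey2, which was detected on 0 yolk sac arrays, the early endothelial factor Etv2 at -2.05 ± 0.24, and Emcn (endomucin) at -1.41 ± 0.24. Hey1 gave 1190.1 and 1154 in the embryos and 64 and 73.35 in the yolk sacs.

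Matrix and mesothelial genes pointed both ways. Of 19 genes of extraembryonic mesoderm and mesothelium, 16 were tested, with 8 called at least 2-fold higher in yolk sac and 2 in embryo (median 1.14). Lum (lumican, a collagen-binding proteoglycan) gave 434.8 and 818.0 in the embryos and 3459 and 4866 in the yolk sacs (2.57 ± 0.33, adjusted p = 0.0003), and the mesothelial membrane protein gene Upk3b gave 122.75 and 212.1 against 869.7 and 1268 (2.54 ± 0.33, adjusted p = 0.00032). Vcam1, the adhesion molecule that binds alpha4 integrin, was higher in embryo at 351.25 and 347.45 against 8.6 and 24.2 (-3.46 ± 0.33, adjusted p = 5.63e-05). Basement membrane genes were all tested, 17 of 17, with 6 called at least 2-fold higher in yolk sac and 0 in embryo (median 0.66). Lama5 and Col4a1 differed by 1.83 ± 0.16 and 1.27 ± 0.18. Among 19 tested genes of interstitial matrix 6 were called at least 2-fold higher in yolk sac and 5 in embryo, against 15.9% and 14.6% of all tested genes. Col1a1, the main fibrillar collagen, gave 145.3 and 517.1 in the embryos and 3243 and 5249.9 in the yolk sacs (3.72 ± 0.62, adjusted p = 0.0011), and Col2a1, the collagen of notochord and cartilage, gave 2084 and 1908 against 44.7 and 83.5 (-4.79 ± 0.15, adjusted p = 4.59e-07).

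Heart muscle genes had the lowest median of any list. Of 29 genes of the sarcomere and heart muscle, 23 were tested, of which 21 were called at least 2-fold higher in embryo and 0 in yolk sac (median -3.80), where 14.6% of all tested genes were called so. Of the 23, 15 were detected on all 4 embryo arrays and on 0 yolk sac arrays. Myl2, the myosin light chain of ventricular muscle, gave 5169 and 5246 in the embryos and -1.7 and -2.9 in the yolk sacs, at least 155-fold higher in embryo (-7.91 ± 0.12, adjusted p = 5.6e-08). It had the largest bound of any tested gene. Myl7, the light chain of atrial and early heart muscle, gave 2943 and 2244 against 1 and 2.25 and was at least 76.6-fold higher, and Nppa, the atrial natriuretic peptide, was at least 45.4-fold higher. Myl4 gave 5984 and 6209.6 against 26.6 and 30.7 (-7.19 ± 0.10, adjusted p = 3.09e-08). Actc1, cardiac actin, gave 7038.5 and 5923 in the embryos and 74.25 and 16.35 in the yolk sacs (-6.96 ± 0.52, adjusted p = 1.72e-05). Myl3 was at 44.5 and 13.9 in the yolk sacs, so both genes had more signal in yolk sac 1 than in yolk sac 2. The heart's transcription factors were less one-sided, with 6 of 16 tested at least 2-fold higher in embryo and 2 in yolk sac. Nkx2-5 and Myocd were detected on 0 yolk sac arrays and were at least 3.54- and 3.75-fold higher in embryo. Hand1, which extraembryonic mesoderm and trophoblast also use, was higher in yolk sac at 10.55 and 22.75 against 89.25 and 164.8 (2.10 ± 0.21, adjusted p = 7.2e-05).

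**Figure D4:**
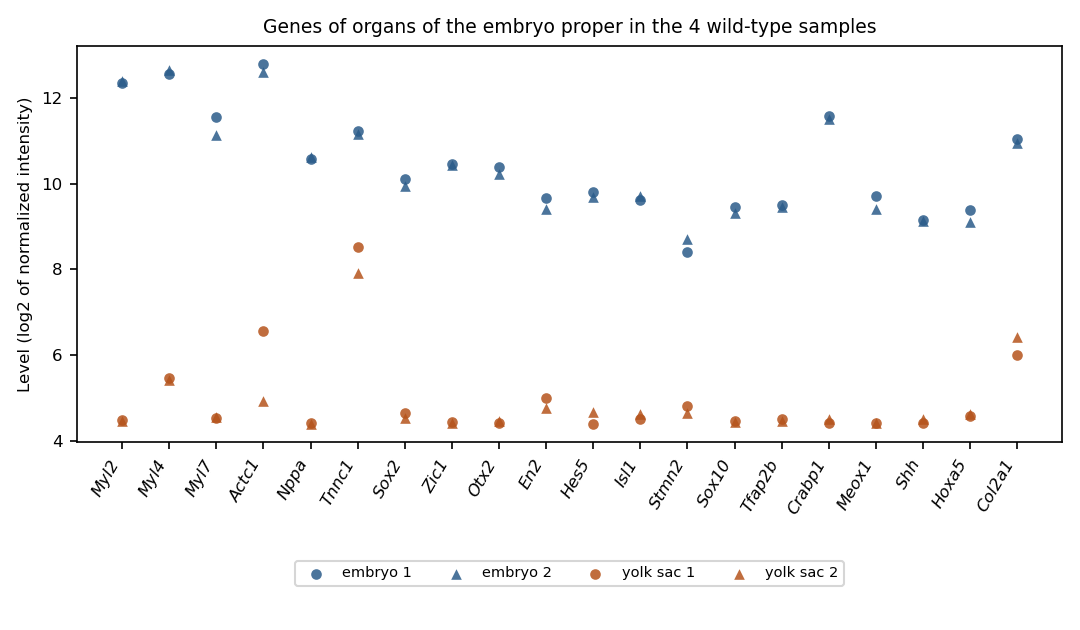
Level of 20 genes of the embryo's organs (y axis, log2 of normalized intensity) in each wild-type sample, blue for embryos and orange for yolk sacs, with circles for number 1 and triangles for number 2. The 2 embryos lie together and well above the yolk sacs for all 20 genes, most of which sit at the floor in yolk sac, and Actc1 separates the yolk sacs at 74.25 and 16.35 in signal.

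Genes of the nervous system were higher in embryo. Of 28 genes of neural progenitors, 24 were tested, with 22 called at least 2-fold higher in embryo and 0 in yolk sac (median -3.06). Sox2, a factor of neural stem cells, gave 1111 and 960.35 in the embryos and 4.75 and 0.9 in the yolk sacs and was at least 30.4-fold higher in embryo (-5.44 ± 0.12, adjusted p = 1.08e-07). Zic1, of the dorsal neural tube and somites, was at least 41-fold higher at 1422 and 1365, and Hes5, a Notch target, at least 25-fold at 898.85 and 813.75. Genes of several dorsoventral domains of the neural tube were on the same side, with Nkx2-2 and Nkx6-1 of the ventral domains at least 4.39- and 15.1-fold higher and Dbx1 of the intermediate domain at least 20.1-fold, all 3 detected on 0 yolk sac arrays. Irx3, detected in both tissues, differed by -5.30 ± 0.11. Regional factors of the brain were called at least 2-fold higher in embryo for 12 of 13 tested and 26 listed genes. Otx2, of forebrain and midbrain, gave 1339 and 1174 against -6.2 and -3.15 (at least 37-fold, adjusted p = 7.98e-08), En2, of the midbrain-hindbrain boundary, differed by -4.66 ± 0.19, and Gbx2, of the anterior hindbrain, by -3.39 ± 0.15. The 2 embryos lay close together for these genes.

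Of 37 genes of neuronal differentiation 29 were tested, with 25 called at least 2-fold higher in embryo and 1 in yolk sac (median -2.79). Isl1, a factor of motor and sensory neurons that also marks heart progenitors, gave 784.4 and 821.55 in the embryos and -0.4 and 5.05 in the yolk sacs and was at least 23.6-fold higher in embryo (adjusted p = 7.98e-08). Elavl2, a neuronal RNA-binding protein, and Stmn2, of microtubules, were detected on 0 yolk sac arrays and were at least 25- and 11-fold higher in embryo, and Nefm, a neurofilament subunit, differed by -3.52 ± 0.14. Prph (peripherin), an intermediate filament of peripheral neurons, was the exception, detected on 0 embryo arrays and at 125.6 and 151.1 in the yolk sacs, at least 4.02-fold higher (adjusted p = 6.3e-05).

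Neural crest and head mesenchyme genes were tested for 25 of 37 listed, with 20 called at least 2-fold higher in embryo and 0 in yolk sac (median -3.03). Sox10, the factor of migrating crest and glia, gave 700.8 and 628.2 in the embryos and -2.85 and -4.4 in the yolk sacs, at least 19.4-fold higher in embryo (adjusted p = 4.45e-07). Crabp1, a retinoic acid binding protein of crest and hindbrain, had the second largest bound of any tested gene, at least 87.4-fold, from 2971 and 2794.5 in the embryos and -4.9 and 0.45 in the yolk sacs. Tfap2b and Foxc1 were at least 20.9- and 13.6-fold higher. Sox9, of crest and cartilage, was detected in all 4 samples and gave 2556 and 2587.5 against 51.1 and 52.55 (-5.34 ± 0.11, adjusted p = 1.08e-07). Snai2 overlapped between the tissues at 273.9 and 293.35 against 253.2 and 323.3 (-0.04 ± 0.11, adjusted p = 0.782). Of 24 genes of somites and presomitic mesoderm 9 were tested and 6 were called at least 2-fold higher in embryo, among them Meox1 (at least 22.1-fold), Tcf15 (at least 6.37-fold) and Wnt3a (at least 9.71-fold).

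The Hox genes, which set position along the trunk, and the related Cdx genes were tested for 24 of 42 listed, with 15 called at least 2-fold higher in embryo and 2 in yolk sac (median -1.62). Over all tested genes the shares were 14.6% in embryo and 15.9% in yolk sac. Hoxa5 gave 676.25 and 543.65 in the embryos and 2.95 and 5.35 in the yolk sacs, at least 17.8-fold higher in embryo (adjusted p = 8.35e-07), and Hoxd4 and Hoxa2 were at least 18.1- and 18.6-fold higher. Hoxb1, of the hindbrain and early mesoderm, gave 268.9 and 209.95 against -4.35 and -3.8. Some members of the same clusters differed little, such as Hoxb7, which missed the threshold without overlap, at 183.05 and 177.5 against 217.6 and 238.8 (0.32 ± 0.14, adjusted p = 0.0756) and Hoxc4 (0.19 ± 0.15). Both exceptions were Cdx2, a caudal factor also used in trophoblast and gut, at 5.3 and 44.9 in the embryos and 644.15 and 911.6 in the yolk sacs (4.27 ± 0.44, adjusted p = 8.73e-05, 4.83 and 3.71 against embryos 1 and 2), and Hoxc9 at 9.05 and 37 against 153.5 and 91.75 (1.91 ± 0.37, adjusted p = 0.00261).

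In the Hedgehog pathway the ligands were divided between the tissues. Shh, made by the notochord, floor plate and gut, was detected on 0 yolk sac arrays, being at least 16.5-fold higher in embryo at 575.45 and 553.5. Ihh, the ligand of visceral endoderm, gave 13.6 and 35.8 in the embryos and 388.3 and 517.65 in the yolk sacs (3.54 ± 0.25, adjusted p = 1.22e-05), and Dhh was at least 1.88-fold higher in yolk sac. The receptor component Smo and the effectors Gli2 and Gli3 were higher in embryo, at -1.84 ± 0.16, -3.16 ± 0.13 and -4.54 ± 0.09, and the receptor Ptch1 differed by -0.85 ± 0.14. In all, 2 of 11 tested genes were called at least 2-fold higher in yolk sac and 5 in embryo, against 15.9% and 14.6% of all tested genes.

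Wnt pathway genes were mostly higher in embryo, with 24 of 29 tested called at least 2-fold higher there and 1 in yolk sac (median -2.15). Among ligands, Wnt7b and Wnt1 were at least 6.78- and 1.92-fold higher in embryo, and Wnt5a differed by -2.51 ± 0.09. Among receptors, Fzd10 was at least 26-fold higher in embryo, while Fzd5 was the member higher in yolk sac at 371.65 and 396.35 against 775.3 and 1103.5 (1.10 ± 0.09, adjusted p = 3.17e-05). Axin2, a general target of the pathway, gave 928.25 and 848.3 in the embryos and 40.6 and 66.65 in the yolk sacs (-3.78 ± 0.15, adjusted p = 1.14e-06), and the secreted inhibitor Sfrp1 gave 1829.9 and 1682 against 25.95 and 33.95 (-5.34 ± 0.10, adjusted p = 7.98e-08).

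Fibroblast growth factor genes pointed both ways, with 9 of 19 tested at least 2-fold higher in embryo and 4 in yolk sac. The shares of all tested genes were 14.6% in embryo and 15.9% in yolk sac. Among ligands, Fgf8, Fgf15 and Fgf10 were detected on 0 yolk sac arrays and were at least 8.96-, 11.7- and 4.68-fold higher in embryo, while Fgf1, undetected in the embryos, gave 179.65 and 254.2 in the yolk sacs, a bound of at least 5.86-fold toward yolk sac. Klb (beta-Klotho), the co-receptor through which Fgf15 acts on liver, gave 4.05 and 49.2 in the embryos and 839.6 and 1202 in the yolk sacs (4.62 ± 0.38, adjusted p = 2.58e-05, 4.01 against embryo 2). Fgfr4, the receptor that pairs with it in liver, was detected on 0 embryo arrays, being at least 1.53-fold higher in yolk sac, while Fgfr2 differed by -2.03 ± 0.09. The targets of the pathway were likewise split, with Etv5 higher in yolk sac (1.63 ± 0.14) and Etv4 at least 3.9-fold higher in embryo.

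Retinoic acid genes were mostly on the embryo side, with 8 of 13 tested at least 2-fold higher in embryo and 1, the carrier Rbp4 given above, higher in yolk sac. Stra6, the membrane receptor for Rbp4, was detected on 0 yolk sac arrays, being at least 4.32-fold higher in embryo. The synthesizing enzymes Aldh1a2 and Aldh1a3 were at least 3.21- and 20.2-fold higher in embryo, and Crabp2 gave 5053 and 4418 against 172.15 and 263.0 (-4.55 ± 0.23, adjusted p = 2.7e-06). In the BMP and TGF-beta pathway 5 of 25 tested genes were at least 2-fold higher in yolk sac and 6 in embryo, against 15.9% and 14.6% of all tested genes. Bmp6 was detected on 0 embryo arrays, being at least 1.87-fold higher in yolk sac, Tgfbr2 differed by 1.53 ± 0.11, and Bmp4 overlapped between the tissues (-0.07 ± 0.12). The activin receptor Acvr2b gave 4869 and 4463 in the embryos and 894.95 and 1168 in the yolk sacs (-2.40 ± 0.09, adjusted p = 8.33e-07).

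Imprinted growth regulators did not share a direction, with 3 of 17 tested at least 2-fold higher in yolk sac and 5 in embryo (median 0.21), or 5 and 4 under both other scalings. In the main fit 15.9% of all tested genes were at least 2-fold higher in yolk sac and 14.6% in embryo. Phlda2, a maternally expressed restrainer of placental growth, gave 98.8 and 934.9 in the embryos and 10847 and 11988 in the yolk sacs (5.03 ± 0.87, adjusted p = 0.00139, 3.42 against embryo 2). Slc22a18, its neighbour in the same imprinted cluster, differed by 4.62 ± 0.40, but its other kept probe by 0.18. Igf2, the main fetal growth factor, did not overlap between the tissues at 20465 and 21256 against 25254 and 26143, but was not called (0.21 ± 0.09, adjusted p = 0.0782), and it passed under 4 alternatives (0.0235 to 0.0461). As for the globins, its signals came close to the highest of the 16 arrays, 29165 to 33696, and saturation was not tested. Grb10, an inhibitor of insulin-type receptors, was higher in embryo (-1.76 ± 0.14, adjusted p = 2.22e-05).

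The mutant arrays entered the normalization, the detection filter, the choice of probe and the estimate of spread of the wild-type comparison. The mutant tissues gave a second measurement of that contrast. In them 3305 genes (29.2%) were called at least 2-fold. Of the 3461 wild-type calls, 2837 were called the same way in mutants, 82.0% of the wild-type and 85.8% of the mutant calls, and 1 was called the other way. Afp differed by 4.26 ± 1.14 in mutants, Cubn by 4.31 ± 0.88, Myl2 by -7.75 ± 0.12 and Sox2 by -5.24 ± 0.12. The medians of the lists were close for the heart (-3.60 in mutants), the lysosome (2.49) and neural crest (-2.46), and farther apart for neuronal differentiation (-1.08 against -2.79 in wild types), surface ectoderm (-2.50 against -1.57), the Fgf pathway (-1.18 against -0.37) and lipoprotein assembly (3.86 against 4.67). For lipoprotein assembly the wild-type median was 5.80 against embryo 1 and 3.09 against embryo 2, so the mutant median lay between these values. The difference between list medians was not tested.

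The difference between genotypes in the tissue difference was called for 38 genes (0.336% of those tested), 30 negative and 8 positive as wild type minus mutant. The labels give an embryo and a yolk sac of a genotype the same number, and with that replicate block in the fit the count was 0. It was 0 without either yolk sac and 71 without embryo 2. Of the 38, 10 belonged to neuronal differentiation. Stmn2 differed by -3.83 ± 0.12 in wild types and -1.42 ± 0.12 in mutants, and Isl1 by -5.11 ± 0.09 and -3.66 ± 0.09. Both were undetected on the wild-type yolk sac arrays, and with an offset of 50 their wild-type differences were -2.77 and -3.88.

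**Figure D5:**
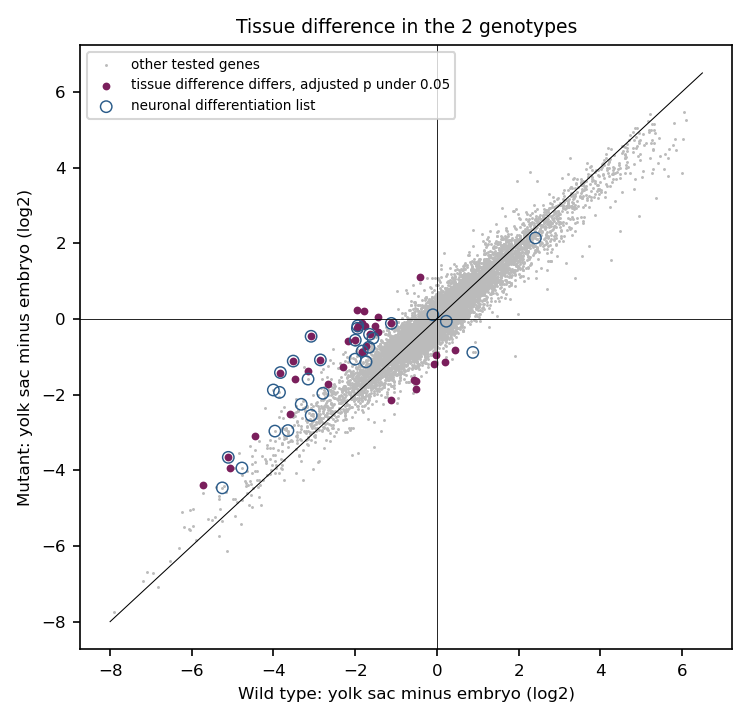
Each point is a tested gene, with its yolk sac minus embryo difference in wild types on the x axis and in mutants on the y axis (both log2 of normalized intensity). Purple marks the 38 genes whose tissue difference was called as differing between genotypes, open circles mark the neuronal differentiation list, and the line is equality, with 26 of the 29 neuronal genes above it.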

How the data were processed

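The 16 arrays (8 RNA samples, each on 2 arrays) were read from the deposited table that was not normalized. Its signals are background-subtracted intensities, per the file headers, and the tool that extracted them is not given in the sources used here. Each signal column has a companion headed as a p-value, whose deposited values behave as a detection score and do not follow the signals of the same row (Spearman correlation 0.00157 to 0.0106). Detection p was taken as 1 minus the score and assigned by rank, array by array, which is an assumption. No column of values was left unmatched to a sample, and the processed matrix was not used.

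Intensities were background-corrected, quantile-normalized and logged with neqc of limma 3.58.1 (R 4.3.3, offset 16). On 4 or more of the 16 arrays 21169 probes gave a detection p below 0.05. Of these, probes were kept if the platform annotation named 1 gene symbol. The kept probe with the highest mean stood for each of 11324 genes. Of all probes, 34885 carried 1 symbol, 18 several and 10378 none. The 2 arrays of a sample were averaged, and lmFit and eBayes were run on 8 samples in 4 groups (4 residual and 3.35 prior degrees of freedom). The precision is limited by the 2 RNA samples per group, as repeat arrays are not further samples. Only the model fit was tested on simulated log2 levels, in which a gene had the same spread in every group. Normalization, detection, the choice of probe and the bounds were not simulated.

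The comparison, the 39 gene lists and the members were chosen with earlier results of these data known. Named genes were the 12 largest differences and the 12 largest bounds each way, the 12 highest mean signals outside the lists with a difference of at least 3, and list members, of which a part is named. The sample descriptions give an embryo and a yolk sac of a genotype a shared number without saying what it marks. Over all tested genes their deviations from the group means correlated at 0.042 in wild types and 0.220 in mutants. A weak correlation over all genes cannot exclude a pairing. By 0.7 or more on the log2 scale, 15 genes lay apart the same way in both wild-type tissues and 1 in opposite ways. The main fit leaves the shared number out, and the replicate block is given as an alternative. In all, 14 alternatives were tried. Promoters came from RefSeq (GRCm38.p6).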

Additional observations from a re-analysis of the deposited data

Results flagged for a closer look

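Of the genes named above, 3 had a tissue difference that itself differed between genotypes (interaction term, limma, Benjamini-Hochberg adjusted over all tested genes). All 3 are neuronal genes that were higher in embryo in both genotypes, with the larger distance in wild types. For Stmn2, which regulates microtubules in growing axons, the wild-type minus mutant difference was -2.41 ± 0.17 (adjusted p = 0.0104). For Nefm, a neurofilament subunit, it was -2.40 ± 0.20 (adjusted p = 0.0125), and for Isl1 it was -1.45 ± 0.13 (adjusted p = 0.0125). Stmn2 and Isl1 were detected on 0 wild-type yolk sac arrays, so their differences are against background. Nefm was close to it there, at 15.85 and 16.5, detected on 1 array of yolk sac 1 and 0 of yolk sac 2. Its other probes gave wild-type differences of -2.06 and -1.14. In the embryos Stmn2 gave 348.35 and 413.75 in wild types and 90.4 and 104.8 in mutants. Nefm gave 346.1 and 384.95 against 87.9 and 70.4, and Isl1 784.4 and 821.55 against 465.5 and 505.55. With the replicate block in the fit no gene passed the threshold for this term, while 2120 genes had an unadjusted p under 0.05 in the fit without it.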

How the results depend on the processing

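The counts of genes called between the wild-type tissues stayed within 1.5 times under all 14 alternatives. Leaving out 1 sample gave 1749 to 1878 genes at least 2-fold higher in yolk sac and 1581 to 1734 in embryo. Median and 75th percentile scaling moved the median of all genes by 0.138 and 0.125 and raised the share of calls that were higher in yolk sac from 47.9% to 56.3% and 55.8%. The count for the difference between genotypes, 38, was 2 under 75th percentile scaling, 150 with an offset of 50, 5 with detection on at least 8 arrays, 81 with no filter on detection, 18 and 15 with the first or second arrays only, 0 with the replicate block and 0 to 71 with 1 wild-type sample left out. The replicate block (the pairing by shared number) gave 7712 called genes against 7869 and let 6 of the named genes pass, Emb, Wdfy1, Prl2c2, Prl2c3, Prl2c4 and Prl3d3 (adjusted p of 5.22e-05 for Emb to 0.0247 for Prl2c4). It ended no call of a named gene. Prap1, named for its signals alone, is outside all counts of named genes. The weak correlation over all genes in wild types neither establishes nor excludes the pairing. Of the 186 called genes among the 205 named or drawn, 174 were called under every alternative and 12 lost the call under at least 1, and 11 uncalled genes passed under at least 1; no called value changed sign. Medians of lists at background in a tissue moved with the floor: heart muscle from -3.80 to -6.48 under 75th percentile scaling with a floor and -2.87 with an offset of 50, neural progenitors from -3.06 to -5.70 and -1.97, neuronal differentiation from -2.79 to -5.02 and -1.77, neural crest from -3.03 to -5.54 and -2.17, brain regional factors from -2.61 to -5.46 (75th percentile scaling) and the Wnt pathway from -2.15 to -3.91. With no filter on detection, which adds undetected genes, the medians were -1.285 for brain regional factors, 1.615 for plasma proteins and 0.07 for hepatic metabolism. They were -0.09 for Hox and Cdx and -0.37 for somites. The cause of the other shifts was not tested.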

Other observations

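Genes of sterol synthesis were on the embryo side. Of 20 genes of cholesterol synthesis 16 were tested, with 8 called at least 2-fold higher in embryo and 0 in yolk sac (median -0.90), though 4 and 5 in embryo under median and 75th percentile scaling. Sqle, which makes squalene epoxide, gave 1920.2 and 1901 in the embryos and 614.45 and 996.65 in the yolk sacs (-1.49 ± 0.16, adjusted p = 9.79e-05), and Idi1, an earlier enzyme, gave 243.9 and 210.2 against 53.2 and 79.4 (-1.54 ± 0.16, adjusted p = 8.38e-05). Of 30 genes of DNA replication and mitosis 28 were tested, with 4 called at least 2-fold higher in embryo (median -0.57, and 2 to 7 under the alternatives), where 14.6% of all tested genes were called so, among them the D-type cyclins Ccnd1 (-2.60 ± 0.12) and Ccnd2 (-3.69 ± 0.10). Among organ lists, 8 of 13 tested genes of surface ectoderm, 6 of 12 of gut endoderm and 6 of 14 of limb and intermediate mesoderm were called at least 2-fold higher in embryo, and 0, 3 and 1 in yolk sac. Of 18 tested chaperone genes 3 were called at least 2-fold higher in yolk sac and 0 in embryo, against 15.9% and 14.6% of all tested genes. Of 6 genes of rudhira and its cytoskeletal partners 1 and 3 were called so. Both tested sex-linked transcripts stayed under 2-fold. Of 11 tested reference genes 0 were called at least 2-fold either way, with a median of -0.43.

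In both wild-type tissues the samples numbered 2 differed from those numbered 1 the same way, by 0.7 or more on the log2 scale, for 15 genes, 11 of them higher in number 2, and in opposite ways for 1 gene. Wdfy1, an endosomal protein gene, gave 74.8 and 452.6 in embryos 1 and 2 and 156.45 and 1360.2 in yolk sacs 1 and 2. Emb (embigin), a membrane glycoprotein, ran the other way at 1086 and 89 in the embryos and 5284 and 488.85 in the yolk sacs. Prl2c2, Prl2c3, Prl2c4, Prl3d3 and Prl8a2, of the prolactin family, were among the 11, and the Prl2c copies share sequence, so which of them a probe reports is uncertain.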
